A study of Homo sapiens with 6 samples.

Results

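The genes described here are the D-type cyclins (CCND1, CCND2 and CCND3), their kinase partners CDK4 and CDK6, and inhibitors of cyclin-dependent kinases of the INK4 class (CDKN2A, CDKN2B and CDKN2C) and the CIP/KIP class (CDKN1B and CDKN1C). They were chosen by name, and 9 of the 10 were among the 18404 genes tested, each through 1 probe set. CDKN2C was not analysed here, because no probe set was paired with it alone. Arrays read the messenger RNA of HaCaT, a human keratinocyte line that became immortal in culture without a transgene, 72 hours after a lentivirus was added. In 3 samples the virus carried an RNA hairpin against TP63 (shTP63), the gene of the basal epithelial transcription factor p63, and in 3 it carried a control (shControl). All 6 samples thus came from a single line that had received lentivirus. The labels do not give the hairpin sequence, and they do not say whether the replicates were separate cultures. The p-values therefore rest on sample-to-sample spread, possibly only technical. The level of TP63 was not analysed here. The knockdown is thus unchecked, and each direction rests on the sample labels. In such bulk samples, fewer cells of a kind and less RNA per cell cannot be told apart.

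Cyclin D proteins rise with growth signals and activate CDK4 and CDK6. The active kinases phosphorylate the retinoblastoma protein and its relatives, which releases E2F transcription factors and lets the cell pass from G1 into DNA synthesis. INK4 proteins bind CDK4 and CDK6 and keep cyclin D away, whereas CIP/KIP proteins mainly block the later cyclin E-CDK2 complexes and can also help cyclin D and CDK4 to assemble. In stratified epithelia this step divides dividing basal cells from cells that have left the cycle. Many of these proteins are controlled by degradation and phosphorylation, which arrays of messenger RNA do not measure.

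Median log2 intensity per array was 7.44 to 7.47 in shControl and 7.54 to 7.57 in shTP63. Arrays correlated, over probe sets that are no independent replicates, at r of 0.996 to 0.998 within a group and 0.988 to 0.991 between groups. The 340 olfactory receptor genes, not expected in this line, gave a measure of background, with the 95th percentile of their mean levels at 6.76 on the log2 scale. All 11 of the measured keratinocyte markers lay above it in both groups. So did 5 of 8 fibroblast markers, 2 of 5 melanocyte markers and 2 of 7 immune and endothelial markers. The brightest of each list were COL1A1 (mean level 8.49), MITF (8.73) and CDH5 of endothelium (9.53). PTPRC of leukocytes, MLANA of melanocytes and PDGFRA of fibroblasts, also named with their values known, lay under the background level. The summed linear intensity of the fibroblast markers was 1192 to 1232 in shControl and 1252 to 1335 in shTP63, and that of the keratinocyte markers was 69205 to 71683 against 63586 to 64504. It was 630 to 637 against 649 to 680 for the melanocyte markers and 1149 to 1208 against 1194 to 1242 for the immune and endothelial markers, and of these sums only the last overlapped between groups. The mean log2 level of the fibroblast markers overlapped too, at 6.96 to 7.05 against 7.03 to 7.11. Among the keratinocyte markers KRT5, KRT14, DSG3 and SFN fell while ITGB4, LAMB3 and CDH1 rose (named with their values known), and the list median was -0.02. The part of these shifts in the values below was not tested.

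In shTP63 the messenger RNAs of CDK4, CCND2 and CCND1 were lower, and no measured member passed the test as higher. CDK4 fell by 23.5%, CCND2 by 23.1% and CCND1 by 10.8%, while CCND3, CDK6 and all 4 measured inhibitors did not pass the test. In limma's moderated test, adjusted by Benjamini-Hochberg over all genes with a threshold of 0.05, 0 of 9 members rose and 3 fell. Over all genes 16.4% rose, 25.1% fell and 41.5% passed in either direction, and 33.3% of the members passed. When genes were divided by mean level into 5 bins of equal size, 6 of the 9 members belonged to the brightest and 2 to the next. In these bins 69.3% and 61.5% of all genes passed, larger shares than among the members. At an unadjusted p under 0.05, limma and an unmoderated test each gave 0 rises and 4 falls. No member changed by as much as 1.5-fold, and the median difference of the 9 members was 0.01 (log2) against -0.01 for all genes. In the brightest bin and in the next, the median difference of all genes was lower, at -0.10 in each. The values on every array are shown in the plot of member levels.

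**Figure D1:**
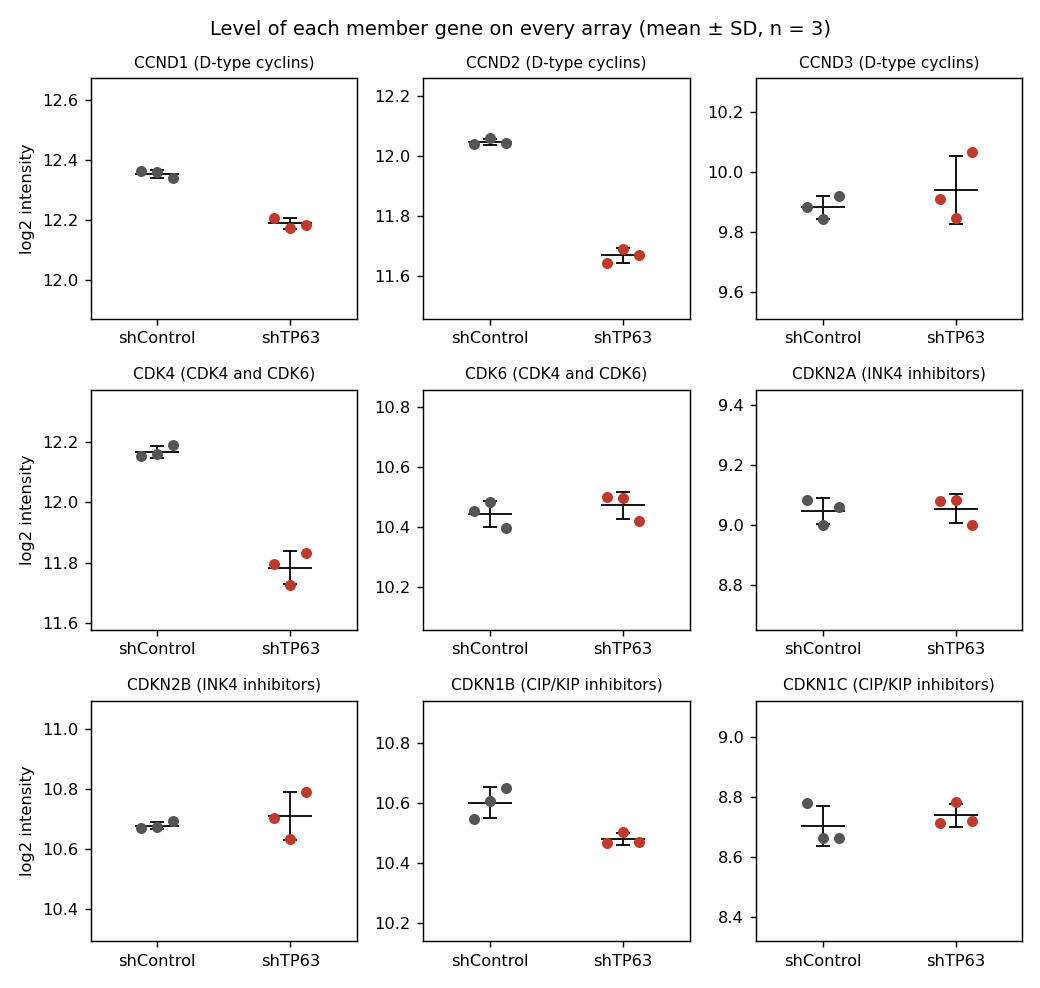
Log2 intensity (vertical axis, 0.8 log2 units in each panel) of the 9 measured genes on each of the 3 shControl (grey) and 3 shTP63 (red) arrays, with bars for the mean and SD. In CCND1, CCND2, CDK4 and CDKN1B all 3 shTP63 points lie below all 3 shControl points, and in the other panels the groups overlap.

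Of the kinases, CDK4 was lower in every shTP63 sample. Its log2 intensity was 12.15, 12.16 and 12.19 in shControl replicates 1 to 3, and 11.79, 11.72 and 11.83 in shTP63. On the linear scale these are 4557, 4583 and 4675 against 3552, 3382 and 3644. The groups did not overlap. From 12.17 ± 0.019 to 11.78 ± 0.055 (SD, n = 3), CDK4 fell by 0.39 in log2 intensity (SE 0.045, limma adjusted p = 0.000166). This was the largest change among the members, and its size ranked 2369th among all genes tested.

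CDK6, the other kinase that cyclin D activates, did not pass the test. It read 10.45, 10.48 and 10.40 in shControl and 10.50, 10.49 and 10.42 in shTP63. The groups overlapped, and the difference was 0.03 (log2, SE 0.046, 95% interval -0.08 to 0.13, limma adjusted p = 0.681). The interval does not reach a fall of the size seen in CDK4.

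The sequences upstream of the CDK4 and CDK6 start sites are given because these paired kinases differed in response. They are the 250 bases before the annotated start (RefSeq, GRCh38.p14, both on the minus strand, chr12:57752311-57752560 for CDK4 and chr7:92836574-92836823 for the outer of the 2 listed CDK6 starts), 5′ to 3′, with each match to the E-box hexamer CACGTG in capitals. No base of either window matched the E2F-type motif TTTNNCGC, which would also have been in capitals.
CDK4: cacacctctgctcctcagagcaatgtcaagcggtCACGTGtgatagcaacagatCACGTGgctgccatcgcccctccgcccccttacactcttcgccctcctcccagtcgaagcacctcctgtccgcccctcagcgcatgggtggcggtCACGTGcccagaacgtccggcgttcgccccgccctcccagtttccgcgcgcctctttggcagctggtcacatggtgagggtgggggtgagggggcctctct
CDK6: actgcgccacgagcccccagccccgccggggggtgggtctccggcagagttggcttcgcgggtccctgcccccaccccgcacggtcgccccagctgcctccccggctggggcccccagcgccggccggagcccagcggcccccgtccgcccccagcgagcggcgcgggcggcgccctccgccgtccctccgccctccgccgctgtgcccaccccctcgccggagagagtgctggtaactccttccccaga

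The CDK4 window held 3 copies of CACGTG, which reads the same on both strands and overlaps neither other motif searched, beginning 216, 196 and 101 bases before the start. Of 35116 start sites in the table, 6.34% had at least 1 copy in a window of the same length and 28 (0.0797%) had 3 or more. The hexamer was chosen after the CDK4 sequence had been seen. It is the site bound by MYC-MAX and other basic helix-loop-helix factors, and a match is a description of the letters, not evidence of binding. Neither listed CDK6 start had a copy. Promoter entries existed for 7 of the 10 genes, with 13 start sites, and 3 of these 13 windows had the hexamer, 1 of CDK4 and 2 of CDKN2C. The E2F-type motif, searched on both strands, was in none of the 13 windows and in 5.92% of all. The p53-family half-site, the decamer that p63 also recognises, searched on both strands, was in none of the 13 and in 5.57% of all. CCND1, CCND2 and CDKN1C had no entry.

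Of the D-type cyclins, which differ in the tissues and signals that induce them but share the same kinases, CCND2 had the larger fall. It read 12.04, 12.06 and 12.05 in shControl and 11.64, 11.69 and 11.67 in shTP63. The 2 groups lay well apart, with no overlap and a within-group SD of at most 0.024. CCND2 thus fell by 0.38 in log2 intensity (SE 0.041, limma adjusted p = 0.000102), or 1.30-fold.

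CCND1, the D cyclin best known as a target of growth factor and Wnt signals, had a smaller fall of the same sign. It read 12.36, 12.36 and 12.34 in shControl and 12.21, 12.17 and 12.18 in shTP63. The groups again did not overlap. CCND1 fell by 0.17 (SE 0.040, limma adjusted p = 0.00922), or 1.12-fold. The call was lost after cyclic loess normalization (difference -0.10, adjusted p = 0.0832). CCND1 had a mean level of 12.27, in the brightest of 5 equal bins of level, where the median difference of all genes was -0.10 and 69.3% of genes passed. Within that bin its difference stood at percentile 39.5 counted from the largest fall, against percentile 12.03 for CDK4 and 12.7 for CCND2.

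CCND3, the most widely expressed D cyclin, did not pass the test. It read 9.88, 9.84 and 9.92 in shControl and 9.91, 9.85 and 10.07 in shTP63. The groups overlapped, and the highest value was that of shTP63 replicate 3. The difference was 0.06 (SE 0.061, 95% interval -0.08 to 0.20, limma adjusted p = 0.490), and without that array it was -0.0037.

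**Figure D2:**
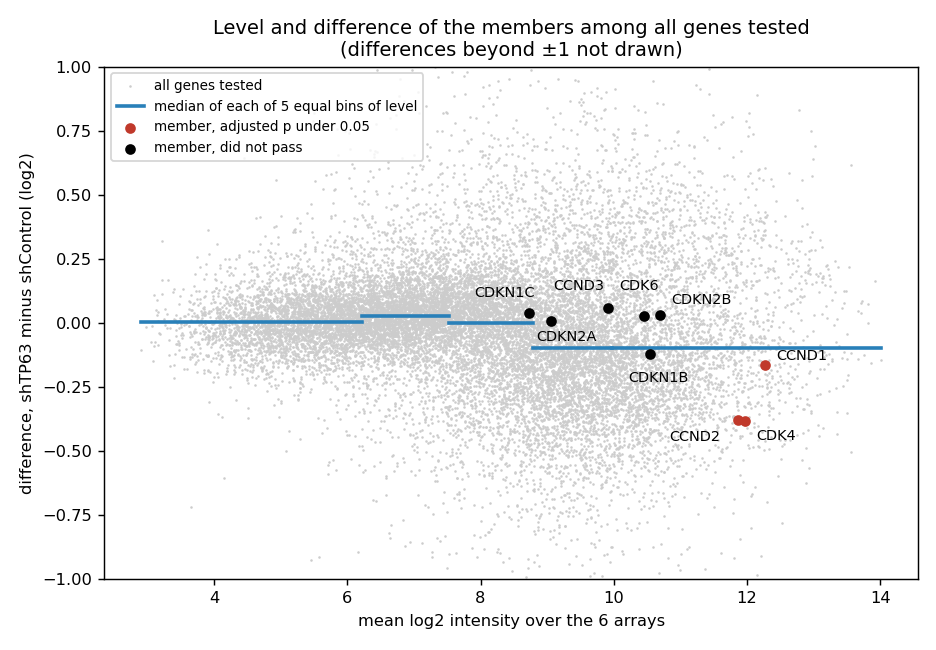
Mean log2 intensity over the 6 arrays (horizontal axis) and difference of shTP63 minus shControl (log2, vertical axis) for all genes tested (grey), with the median difference in each of 5 equal bins of level (blue lines). CDK4, CCND2 and CCND1 (red) are bright and lie under the median of their bin (-0.10), as does CDKN1B (-0.12), which did not pass. The 6 members that did not pass (black) lie between -0.12 and 0.06.

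A log2 ratio of a pair of members on the same array is not moved when an array is scaled as a whole, so its change between groups was also computed for 4 pairs, chosen after the single values were known. The size of such a ratio does not give the relative abundance of the transcripts, because probe sets differ in brightness. CDK4 over CDK6 was 1.70, 1.68 and 1.80 in shControl and 1.30, 1.23 and 1.41 in shTP63, a difference of -0.41 ± 0.064 (SE). CCND2 over CCND3 was 2.155, 2.22 and 2.12 against 1.73, 1.84 and 1.61, a difference of -0.44 ± 0.074 (SE). CCND1 over CCND3 was 2.48, 2.52 and 2.42 against 2.30, 2.33 and 2.12, a difference of -0.22 ± 0.072 (SE). In each of these ratios all 3 shTP63 arrays were lower. CCND1 over CCND2 went the other way, from 0.32, 0.30 and 0.29 to 0.56, 0.48 and 0.51, a difference of 0.21 ± 0.026 (SE), since CCND2 had the larger fall. For each pair the two-sided exact permutation p was 0.1, also after adjustment over the 4 pairs, which is the smallest that 3 against 3 arrays can give. Because the pairs were picked with the single values known, their separation adds no independent support to those values. The plot of within-array ratios shows each array.

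**Figure D3:**
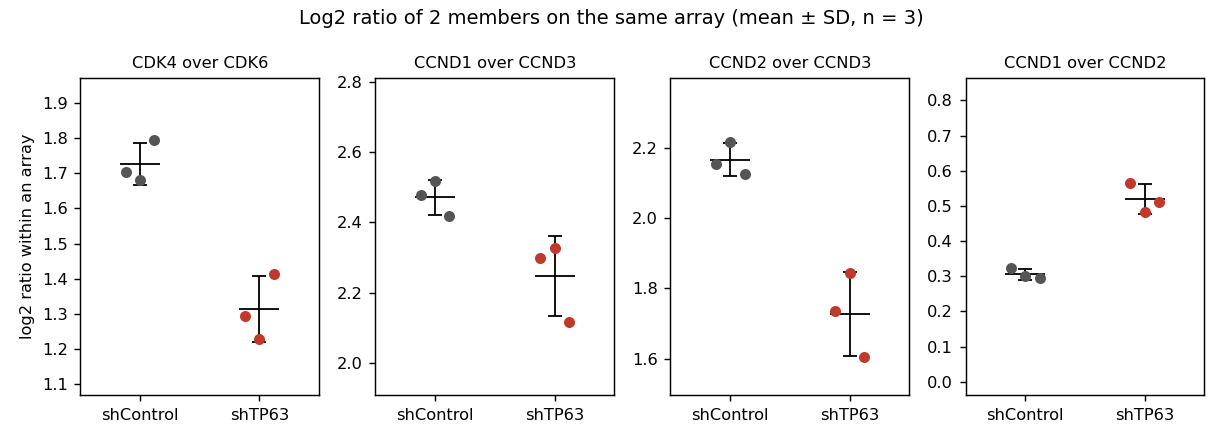
Log2 ratio of 2 members on the same array (vertical axis, 0.9 log2 units in each panel) for the 3 shControl (grey) and 3 shTP63 (red) arrays, with bars for the mean and SD. The groups do not overlap in any of the 4 panels, and the difference ranges from -0.44 for CCND2 over CCND3 to 0.21 for CCND1 over CCND2. The pairs were chosen after the single values were known.

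The INK4 inhibitors gave values that overlapped between groups. CDKN2A encodes p16, the inhibitor of CDK4 and CDK6, and from another first exon ARF, which stabilises p53, and the transcripts of both share exons and could not be told apart here. It read 9.08, 8.998 and 9.06 in shControl and 9.08, 9.08 and 8.999 in shTP63. This was the smallest difference among the members, at 0.01 (SE 0.047, 95% interval -0.10 to 0.11, limma adjusted p = 0.925). CDKN2B, which encodes p15, an inhibitor known to be induced by TGF-beta, lies beside CDKN2A on chromosome 9. It read 10.67, 10.67 and 10.69 in shControl and 10.70, 10.64 and 10.79 in shTP63. The shTP63 values spread on both sides of the shControl values, with an SD of 0.079 against 0.013. The difference was 0.03 (SE 0.050, 95% interval -0.08 to 0.14, limma adjusted p = 0.666).

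Of the CIP/KIP inhibitors, CDKN1B, which encodes p27, came closest to the threshold without passing it. It read 10.55, 10.61 and 10.65 in shControl and 10.47, 10.51 and 10.47 in shTP63. All 3 shTP63 values lay under the 3 shControl values. With CDK4, CCND1 and CCND2 this made 4 of 9 members whose groups did not overlap, against 51.4% of all genes. The difference was -0.12 (SE 0.045, 95% interval -0.22 to -0.02, limma adjusted p = 0.0592). Of 17 alternatives 5 let CDKN1B pass, such as leaving out shControl replicate 1 (adjusted p = 0.0457) or centring arrays on their median (-0.23, adjusted p = 0.00315). It stood at -0.04 (adjusted p = 0.503) under quantile normalization of single-gene probe sets. CDKN1C encodes p57, an imprinted inhibitor linked with cell cycle exit. It read 8.78, 8.66 and 8.67 in shControl and 8.71, 8.78 and 8.72 in shTP63. The groups overlapped, and the difference was 0.04 (SE 0.050, 95% interval -0.08 to 0.15, limma adjusted p = 0.611).

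The scale of the arrays bears on the small differences. Centring each array on its median, over all probe sets, moved the median difference of all genes by -0.11, and with it those of CCND3, CDK6, CDKN2A, CDKN2B and CDKN1C from slightly above 0 to between -0.10 and -0.05, none of which passed. CDK4 lay between -0.49 and -0.32 and CCND2 between -0.49 and -0.31 over 17 alternatives, and both passed in each. The plot of differences under 5 scalings gives these values.

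**Figure D4:**
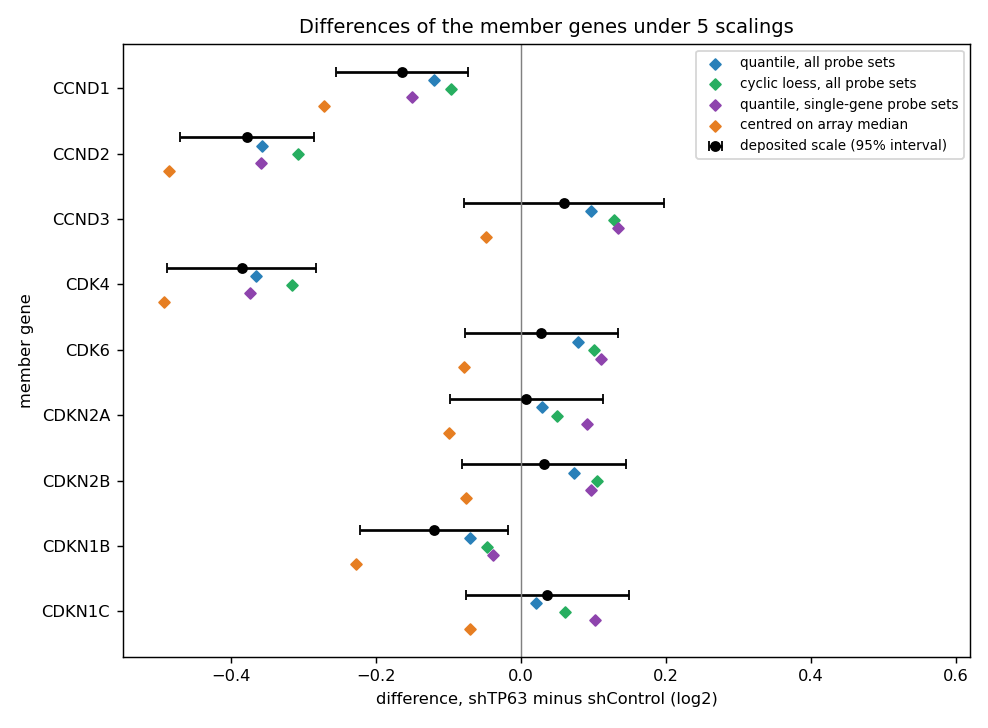
Difference of shTP63 minus shControl (log2, horizontal axis) for the 9 measured genes on the deposited scale, with the 95% interval from limma (black), and after 4 other normalizations (diamonds). CCND2 and CDK4 stay under -0.3 in all 5, CCND1 ranges from -0.27 to -0.10, and CCND3, CDK6, CDKN2A, CDKN2B and CDKN1C lie on both sides of 0.

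The 3 genes outside the group whose pattern was most like that of CDK4, the member with the largest fall, were USF2, PYCARD and TXN2. Likeness was the root mean square distance between the 6 log2 values after centring each gene on its own mean, and it was 0.0124, 0.0125 and 0.0141. Their differences were -0.38, -0.40 and -0.40. With 2 groups of 3 arrays such a distance mostly ranks genes by the size of their difference.

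The direct targets of the kinases are the pocket proteins, which hold E2F-DP factors and, with the LIN proteins, form complexes that repress cell cycle genes in resting cells. Of 17 such genes, 8 fell and 2 rose, so 58.8% passed against 41.5% of all genes, and the median difference was -0.10. The median level of the list, 9.08, lies in the bin where 61.5% of genes passed and their median difference was also -0.10. RBL2, the pocket protein p130 of resting cells, fell by 0.46 (SE 0.043, limma adjusted p = 4.43e-05). LIN54 and LIN52, subunits of that repressor complex, each fell by 0.31 (limma adjusted p = 0.000316 and 0.000426). RB1, the retinoblastoma gene, fell by 0.18 (SE 0.054, limma adjusted p = 0.0283). This call was lost in 6 of 17 alternatives. Among them were cyclic loess (adjusted p = 0.132) and leaving out shControl replicate 2 (0.108), shControl replicate 3 (0.0615) or shTP63 replicate 3 (0.0852). E2F1, an activator of DNA synthesis genes, differed by 0.09 (SE 0.042, limma adjusted p = 0.121). It was at 0.18 (adjusted p = 0.00792) under quantile normalization of single-gene probe sets and at -0.02 after centring on the array median. The 2 rises, RBL1 and E2F8, were named after their values were seen. Their count dropped to 0 without shControl replicate 1, shControl replicate 3 or shTP63 replicate 2, and to 1 without shControl replicate 2 or shTP63 replicate 3.

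The next step of the cycle runs through cyclin E, cyclin A and CDK2, and CDK-activating kinase phosphorylates CDK4, CDK6 and CDK2. Of 11 genes of this list, which also held the remaining inhibitors, 1 rose and 2 fell, with a median of -0.06, and 27.3% passed against 61.5% of all genes in the bin of its median level, 9.32. The median difference of all genes in that bin was -0.10. CDK7 and MNAT1, the catalytic and assembly subunits of CDK-activating kinase, fell by 0.34 (SE 0.052, limma adjusted p = 0.000765) and 0.22 (SE 0.045, limma adjusted p = 0.00361). CDC25A, the phosphatase that activates CDK2, rose by 0.29 (SE 0.075, limma adjusted p = 0.0118), but not after centring on the array median (adjusted p = 0.0563), after quantile normalization of all probe sets (0.0521) or in the unmoderated test (0.0882). CCNE1 (0.13), CCNE2 (-0.06) and CDK2 (0.11) did not pass, with limma adjusted p of 0.179, 0.344 and 0.122, and CDK2 passed under 3 of the other normalizations, after cyclic loess at 0.18 (adjusted p = 0.0128). CDKN1A, the p21 inhibitor best known as a p53 target, differed by -0.07 (SE 0.041, limma adjusted p = 0.211). CDKN2D, the remaining INK4 gene, differed by -0.09 (SE 0.059, limma adjusted p = 0.263). CDKN1A, CDKN2D and CCNE2 passed as lower after centring on the array median, at -0.18, -0.20 and -0.17.

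Another list held genes that act on the stability or activity of these proteins. Of 15 genes, 9 fell and 2 rose, the median difference was -0.20, and 11 of 15 (73.3%) passed against 69.3% of all genes in the brightest bin of level, which holds the median level of the list, 10.52. The median difference of all genes in that bin was -0.10. SKP2, the F-box protein that marks p27 for degradation, fell by 0.60 (SE 0.043, limma adjusted p = 1.32e-05), from 11.33, 11.33 and 11.32 to 10.70, 10.78 and 10.70. It lay between -0.70 and -0.52 over the alternatives and was further from 0 than any member. UBAC1, part of another ligase for p27, fell by 0.35 (SE 0.048, limma adjusted p = 0.000410), and GSK3B, the kinase that marks cyclin D1 for export and degradation, by 0.32 (SE 0.048, limma adjusted p = 0.000588). The 2 rises, AMBRA1, a ligase receptor for D cyclins, and PIM1, a kinase, were named after their values were seen. Without any single array other than shTP63 replicate 2, and with the replicate number as a block, 1 rise was left.

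Of 16 measured transcription factors upstream of cyclin D and the inhibitors, 7 fell and 2 rose, and the median difference was -0.10. The median level of the list was 9.62, and its share of 56.3% lay near the 61.5% of that bin of level, whose median difference was also -0.10. FOXM1, a factor of proliferating cells, fell by 0.45 (SE 0.044, limma adjusted p = 5.88e-05), the zinc finger factor SP1 by 0.37 (SE 0.041, limma adjusted p = 0.000118) and FOXO4, a forkhead factor that can induce CDKN1B, by 0.39 (SE 0.046, limma adjusted p = 0.000181). MYC, named after its value was seen because its product binds CACGTG, read 11.68, 11.70 and 11.67 in shControl and 11.43, 11.40 and 11.46 in shTP63, and fell by 0.25 (SE 0.041, limma adjusted p = 0.00101). Within the brightest bin of level the difference of MYC stood at percentile 27.1, counted from the largest fall. Whether the falls of MYC and CDK4 are connected was not tested. The 2 rises, CTNNB1 and KLF6, named after their values were seen, became 1 without any single array other than shTP63 replicate 1.

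Downstream lie the DNA replication genes, classic E2F targets. Of 29 measured genes 7 rose, 2 fell and 20 did not pass, with a median difference of 0.03. The share that passed, 31.0%, compares with 41.5% of all genes. The median level of the list, 9.98, lies just above the lower limit of the brightest bin of level, 9.97. In that bin 69.3% of all genes passed, and in the next bin 61.5%. The median difference of all genes was -0.10 in each of these bins. ORC6, a subunit of the origin recognition complex, rose by 0.57 (SE 0.053, limma adjusted p = 4.89e-05). UHRF1, which maintains DNA methylation at replication forks, rose by 0.30 (SE 0.057, limma adjusted p = 0.00235) and MCM6, a helicase subunit, by 0.21 (SE 0.044, limma adjusted p = 0.00459), the latter not after centring on the array median (adjusted p = 0.0837). The split moved with the scaling, from 12 rises and 0 falls under quantile normalization of single-gene probe sets to 3 rises and 10 falls after centring. The 2 falls, GINS3 and TYMS, were named after their values were seen. They became 1 without shControl replicate 1 or shTP63 replicate 1 and 0 without shControl replicate 2, shControl replicate 3 or shTP63 replicate 3. The plot of the 5 lists sets these genes side by side.

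**Figure D5:**
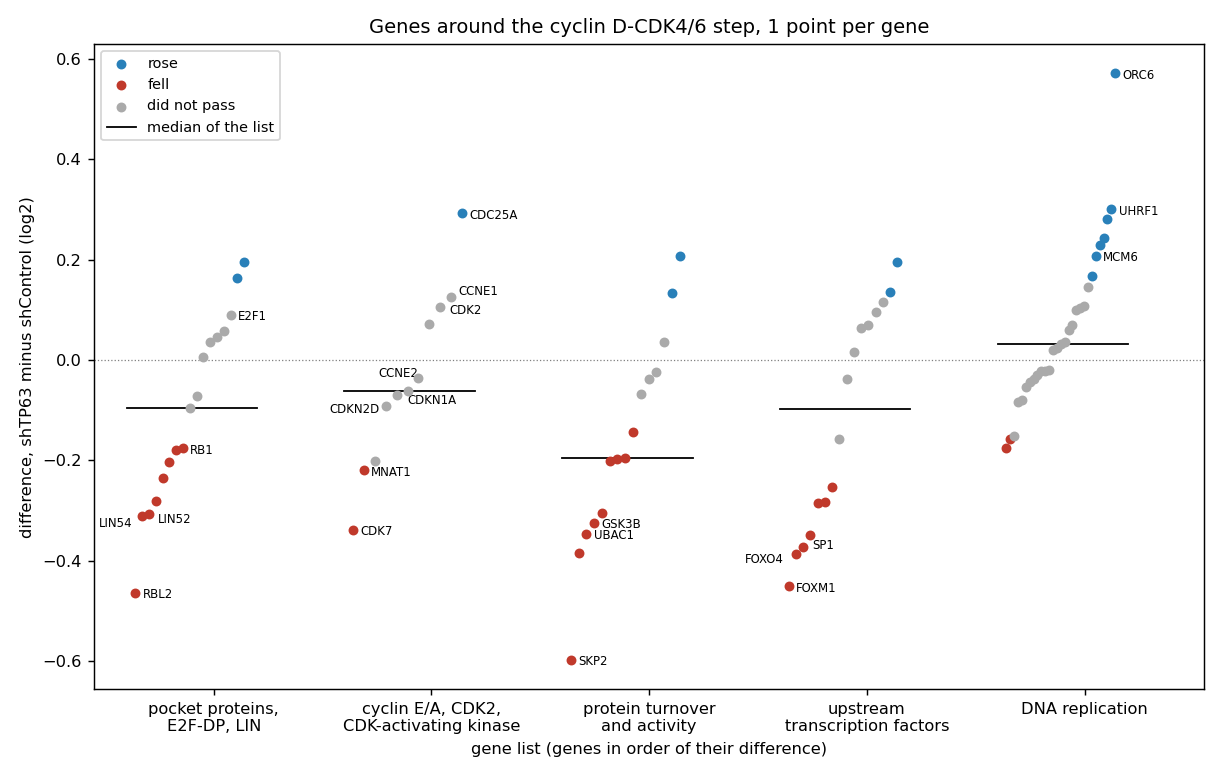
Difference of shTP63 minus shControl (log2, vertical axis) for each measured gene of 5 lists around the cyclin D-CDK4/6 step, in order of the difference, with the list median as a black line (blue: rose, red: fell, grey: did not pass). The median lies at -0.20 for protein turnover and activity and at 0.03 for DNA replication, and SKP2 (-0.60) and ORC6 (0.57) lie furthest from 0.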

How the data were processed

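Arrays of 3 shControl and 3 shTP63 samples were grouped by the sample titles. Per the submitters' processing notes, the authors made the values with RMA in R 2.15.1, and the deposited values are intensities on a linear scale (5.63 to 23661), of which log2 was taken here. RMA includes a quantile normalization over the arrays, yet the median intensity of the deposited arrays was higher in all shTP63 samples than in any shControl sample. No genome build is named in the sources used. Of 32321 probe sets, 19158 were paired with 1 gene, 1388 with several and 11775 were unlisted. Each gene was represented by its probe set with the highest mean. Two-sided moderated tests without covariates were run in R 4.3.3 (limma 3.58.1), adjusted by Benjamini-Hochberg over 18404 genes, and the steps were tested on simulated data. The number of arrays limits the precision, with a median standard error of 0.053.

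The members and the gene lists (90 genes in 5 lists, from general knowledge) were chosen with earlier results of these data known. All members were named, and in each list the 3 genes with the smallest adjusted p, with CDKN1A, CDKN2D, RB1, E2F1, CCNE1, CCNE2 and CDK2, and the 3 genes most like the member with the largest called fall. The alternatives were a replicate block, 4 other normalizations, leaving out the dimmest 40% of genes, the mean of probe sets, a trended robust prior, array weights, an unmoderated test, a threshold of 0.01 and each array left out. Within-array ratios were added after seeing the data.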

Additional observations from a re-analysis of the deposited data

How the results depend on the processing

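Over all alternatives 0 members rose and 2 to 4 fell (3 to 4 with 1 array left out). The calls of CDK4 and CCND2 held in all 17, and that of CCND1 in 16, lost after cyclic loess. Centring on the array median gave reversed signs, none past the threshold, for CCND3 (-0.049), CDK6 (-0.080), CDKN2A (-0.10), CDKN2B (-0.076), CDKN1C (-0.071), E2F1 (-0.017) and CDK2 (-0.00088). Quantile normalization of single-gene probe sets did so for CDKN1A (0.012) and CCNE2 (0.035). With 1 array left out CCND3 ranged from -0.0037 to 0.106, CDKN2A from -0.017 to 0.035 and CDKN2B from -0.0095 to 0.069. Over all genes centring gave 1782 rises and 7932 falls, against 3015 and 4619. With 1 array left out there were 2503 to 2910 rises and 3923 to 4380 falls.

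In the lists, centring gave 0 rises for the pocket proteins, the cyclin E module, protein turnover and the upstream factors, 7 falls for the cyclin E module, and 3 rises and 10 falls for DNA replication. Cyclic loess gave 2 rises in the cyclin E module, 4 among the upstream factors, and 11 rises and 0 falls in DNA replication. Quantile normalization of single-gene probe sets gave 4, 2, 4 and 12 rises for the pocket proteins, the cyclin E module, the upstream factors and DNA replication, and 0 falls for the last, as did quantile normalization over all probe sets. A threshold of 0.01 gave 0, 0, 1 and 0 rises in the first 4 lists and 0 falls in DNA replication, and the unmoderated test gave 1 rise for the pocket proteins, 0 for the cyclin E module and 0 falls in DNA replication. With 1 array left out, rises ranged from 0 to 2 for the pocket proteins and from 1 to 2 for protein turnover and the upstream factors, and falls in DNA replication from 0 to 2. The stricter threshold lowers counts by construction. For the other changes the cause was not tested.

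Of the same-numbered samples only those of replicate 3 deviated in the same direction, and weakly (r = -0.15, -0.04 and 0.13 for replicates 1 to 3). Between samples of different numbers r reached 0.16. The replicate number was not taken as a pairing. As a block it kept 3 falls among the members, with 2832 rises and 4333 falls over all genes, and left 1 rise each for the pocket proteins, protein turnover and the upstream factors and 0 falls in DNA replication. Changes under about 0.1 on the log2 scale lay within the intervals of single genes and within what another scaling moved.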
